A study of Mus musculus with 2 samples.

Results

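The genes described here build and run the lysosome, the acid compartment of the cell, and the autophagy pathway that delivers cytoplasm to it. They were chosen by symbol from the protein-coding genes of the RefSeq table for GRCm38.p6, the assembly behind mm10. The choice took the vacuolar proton pump (Atp6v and Atp6ap), the cathepsins, Lamp1 to Lamp3, the Mcoln channels, the numbered Atg genes, Ulk1, Ulk2, Becn1, Sqstm1, Tfeb, Tfe3 and Mitf. It gave 79 of 21887 genes. Binding was read from 2 libraries of CUT&Tag, a method in which an antibody in permeabilised cells guides a transposase that tags the DNA around its target. Both libraries were made with an antibody against the phosphatase PHLPP1, a commercial kit and primary wild-type mouse alveolar macrophages, the macrophages of the lung airspaces, which came from bronchoalveolar lavage. One library, called IL-4 below, came from cells given interleukin-4 at 20 ng/ml for 4 h, and the other from untreated cells. Each group held 1 library, so there were no replicates, no value has a spread between samples, and the comparisons carry no test. A control antibody was not part of the data used, so signal of PHLPP1 and signal of other origin cannot be told apart.

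Lysosomes are acidified by the vacuolar ATPase, in which the soluble V1 sector burns ATP and turns a rotor that drives protons through the membrane-bound V0 sector. The acid activates cathepsins, proteases that digest what macrophages take up, and autophagosomes fuse with the same compartment. The transcription factors Tfeb, Tfe3 and Mitf, the MiT/TFE family, switch on many of these genes by binding an E-box, CACGTG, at their promoters. PHLPP1 is best known as a phosphatase that acts on AKT, and alveolar macrophages rely on lysosomes to clear surfactant and inhaled particles.

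The IL-4 list held 226476 regions and the untreated list 165968. A region was counted for a gene when it touched the gene body or the 5 kb on either side, called the window. That gave 384 regions over the 79 windows in the IL-4 library and 257 in the untreated library. The fold of a region is the authors' own ratio of the fragment pileup at its summit to the local background of the same library, with 1 added to both and no scaling between libraries. The constant background, which grows with depth, was 15.9 fragments in the IL-4 library and 13.9 in the untreated library, a ratio of 1.14. The strongest fold of a gene was also higher in the IL-4 library across the genome, with a median ratio of 1.25 over the 17514 genes that had a region in both libraries (0.32 on the log2 scale). Every IL-4 to untreated ratio of folds below is to be read against that 1.25.

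Most of the lysosome and autophagy genes, like most genes, had a called region in both libraries. A region lay in the window of 74 of 79 genes in the IL-4 library (93.7%, exact Clopper-Pearson 95% interval 85.8 to 97.9) and of 63 in the untreated library (79.7%, 69.2 to 88.0). Over all protein-coding genes the shares were 87.6% in the IL-4 library and 82.1% in the untreated library, so the count stood above the background with IL-4 and just under it in untreated cells, and the background lay inside the interval both times. These intervals cover counting error only. A region of fold 3 or more was found at 58 genes (73.4%, 62.3 to 82.7) in the IL-4 library and at 41 (51.9%, 40.4 to 63.3) in the untreated library, where 59.2% and 41.3% of all genes had one. The median of the strongest fold was 4.28 with IL-4 and 3.42 in untreated cells for these genes, and 3.79 and 3.02 for all genes with a region. The typical window was not denser in regions than others, with a median of 1.06 regions per 10 kb in the IL-4 library and 0.627 in the untreated library, against 1.18 and 0.687 over all genes.

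Genes found in 1 library alone all had their regions in the IL-4 library. The 11 genes were Atp6ap1, Atp6v0e, Atp6v1g3, Becn1, Cts3, Cts8, Ctse, Ctsf, Ctsj, Lamp2 and Ulk2, which is 13.9% of 79 where 7.55% of all genes were found in the IL-4 library alone. None of the 79 was found in the untreated library alone, a pattern held by 2.04% of all genes. All 11 lay under the IL-4 median of 3.79 over all genes with a region. Their strongest folds ran between 1.78 at Ctsj and 3.68 at Atp6ap1, the gene of an accessory protein of the proton pump. Ctsg, Lamp3, Ctsr, Cts7 and Ctsm had no region in either library.

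**Figure D1:**
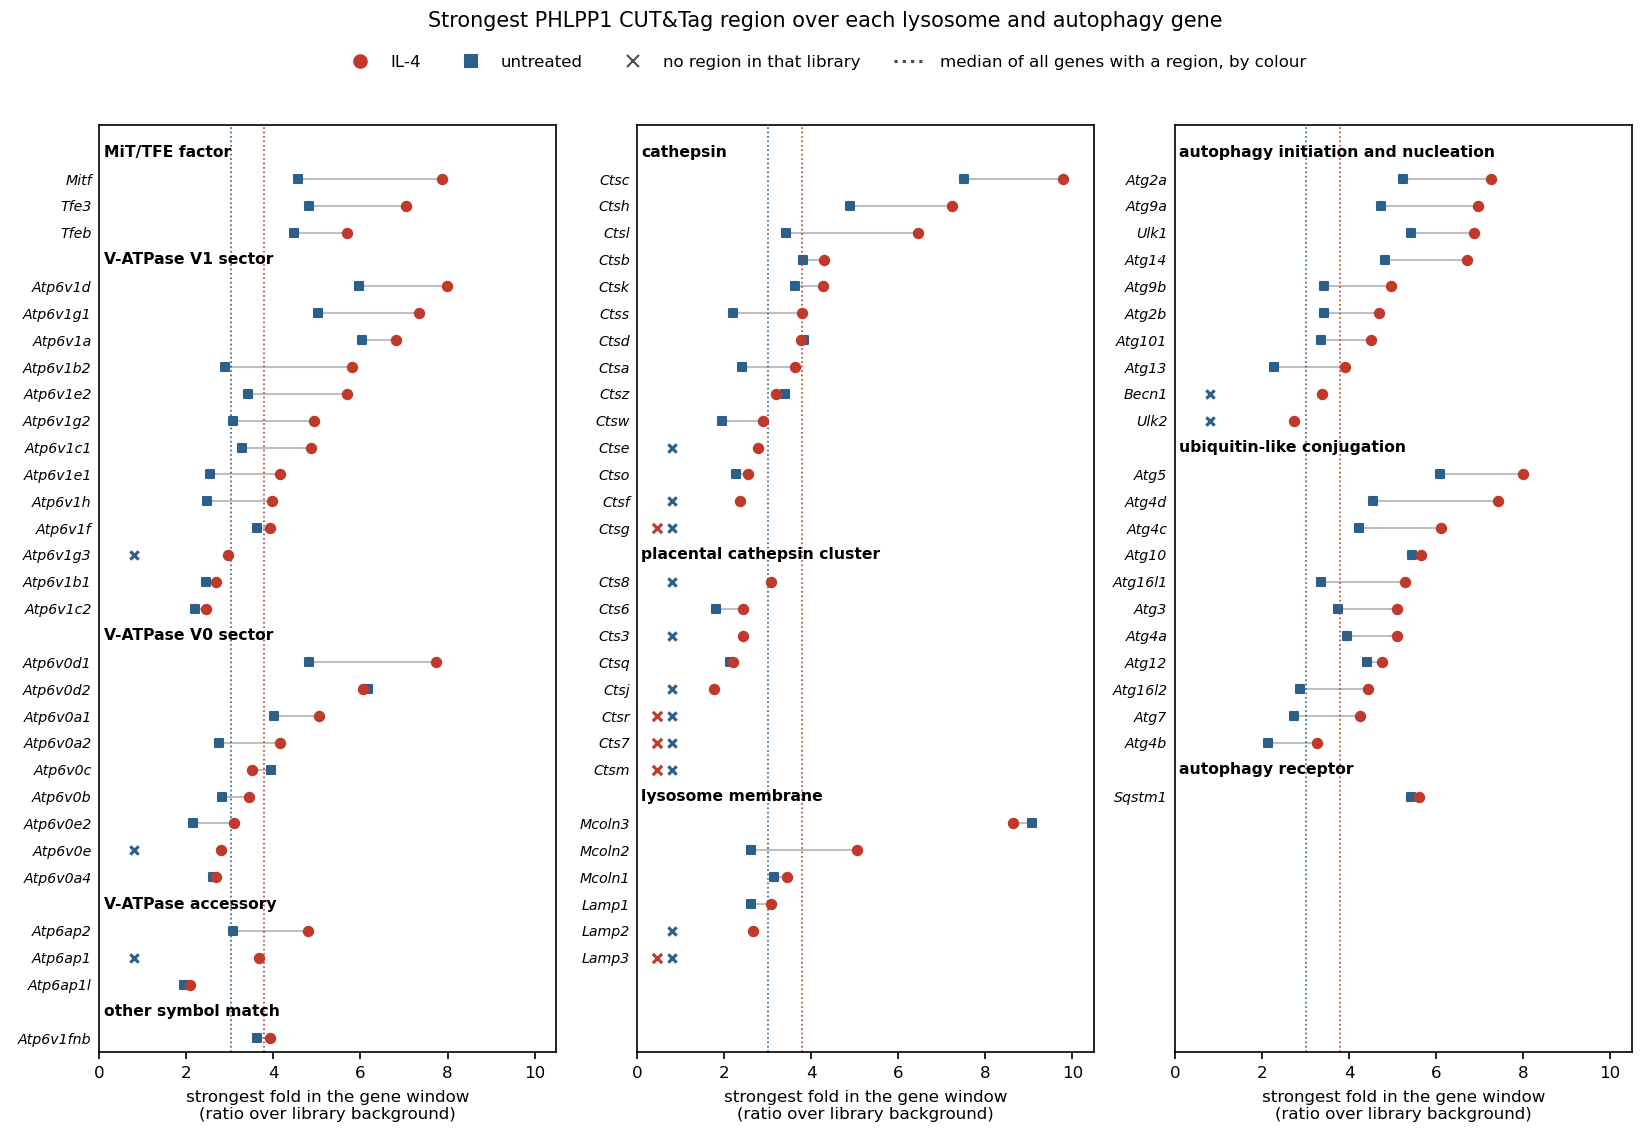
The strongest fold in each gene window (horizontal axis, ratio over the library's background) is plotted for the 79 genes by role, with IL-4 as circles, untreated as squares, and a cross near 0 for a gene with no region in that library. The highest point is Ctsc at 9.78 in the IL-4 library, the 3 MiT/TFE genes all lie right of the dotted medians of all genes, 3.79 for IL-4 and 3.02 for untreated, and the placental cathepsins cluster at low folds or crosses.

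All 3 MiT/TFE genes, which encode the factors that control lysosome genes, were among the well-marked ones. Mitf, at chr6:97807002-98021360, is best known from melanocytes and osteoclasts and had a strongest fold of 7.88 with IL-4 and 4.56 in untreated cells. Tfe3, at chrX:7762530-7775202, reached 7.06 with IL-4 and 4.83 in untreated cells. Tfeb, at chr17:47737037-47792416, reached 5.68 with IL-4 and 4.47 in untreated cells. The 3 genes thus ranked Mitf, Tfe3, Tfeb by fold in the IL-4 library, while in the untreated library they lay within 4.47 to 4.83.

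The marks of the 3 genes were placed differently. At Tfe3 the strong region sat on the first listed start, with the summit 17 bp inside the gene in the IL-4 library and 40 bp inside in the untreated library. Mitf carried 14 regions in the IL-4 library and 10 in the untreated library along a gene with 3 listed starts. Its first start had a fold of 5.93 with IL-4 and 4.56 in untreated cells. The highest Mitf region of the IL-4 library lay 13.7 kb inside the gene, with a fold of 7.88, and the untreated region there had a fold of 4.43. A further strong place, 59.7 kb inside, had a fold of 5.22 with IL-4 and 3.08 in untreated cells. Tfeb carried 15 regions in the IL-4 library and 10 in the untreated library, and its highest IL-4 region lay past the gene's end, 56.5 kb from the first start, with a fold of 5.68, against 4.29 at the same place in the untreated library. A Tfeb region 17.3 kb inside the gene had a fold of 4.07 with IL-4 and 4.47 in untreated cells. Its pileups were 117 fragments with IL-4 and 75 in untreated cells, a ratio above that of the constant backgrounds, so the direction there turns with the scaling.

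**Figure D2:**
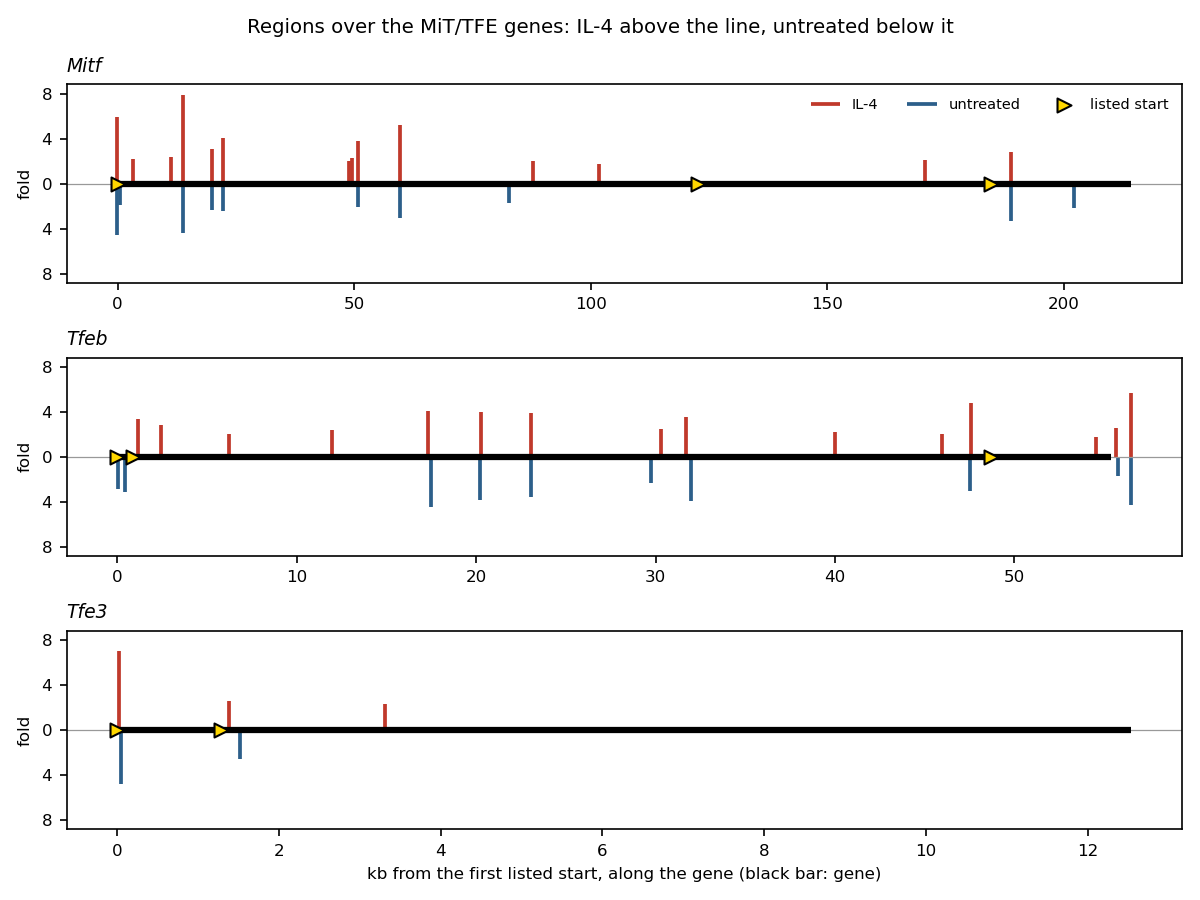
Every region in the windows of Mitf, Tfeb and Tfe3 is drawn as a line at its summit, in kb from the first listed start along the gene, with the fold of IL-4 regions upward and of untreated regions downward. Arrowheads mark listed starts and the black bar the gene; Mitf and Tfeb show many regions through the gene, and Tfe3 shows its strong pair at the first start, 7.06 with IL-4 and 4.83 in untreated cells.

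Tfe3 and 4 other genes of the set, Atp6ap1, Atp6ap2, Lamp2 and Atg4a, lie on chromosome X, which held few regions in both lists. Only 0.425% of IL-4 regions and 0.460% of untreated regions were on X, and 38.2% of X genes had a region in the IL-4 library and 26.9% in the untreated library, against 90.9% and 85.6% of autosomal genes. Of the 5 genes on X, 5 had a region in the IL-4 library and 3 in the untreated library. The cause of the low number on X was not tested.

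The E-box read by the MiT/TFE factors was looked for, on both strands, in the RefSeq windows of 250 bases before to 50 after each listed start (build GRCm38.p6), which cover 65 of the 79 genes. CACGTG reads the same on both strands. It was present at 15 of 65 genes (23.1%), against 1559 of 17492 genes overall (8.91%). The longer palindrome TCACGTGA, which contains CACGTG and is the heart of the element known from lysosome genes, was present at 7 of 65 (10.8%), against 246 of 17492 (1.41%). The 7 genes were Ctsa, Ctsd, Mcoln1, Atp6v0d1, Atp6v1a, Atg3 and Atp6v0e. A match of letters is a description and does not show that a factor bound there.

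The promoters below show these letters in capitals, first where the 250 bases before the start hold them. Lamp1 (chr8:13158911-13159160, plus strand), the gene of an abundant lysosome membrane glycoprotein, has 4 copies of CACGTG. Mcoln1 (chr8:3500269-3500518, plus strand), Ctsd (chr7:142387828-142388077, minus strand), Atp6v1a (chr16:44139260-44139509, minus strand) and Atg3 (chr16:45158579-45158828, plus strand) hold TCACGTGA.
Lamp1: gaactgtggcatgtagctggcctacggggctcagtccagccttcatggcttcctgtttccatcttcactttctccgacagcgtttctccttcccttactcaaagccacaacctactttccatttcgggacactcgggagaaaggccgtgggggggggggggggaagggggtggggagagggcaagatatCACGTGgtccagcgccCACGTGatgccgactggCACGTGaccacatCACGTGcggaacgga
Mcoln1: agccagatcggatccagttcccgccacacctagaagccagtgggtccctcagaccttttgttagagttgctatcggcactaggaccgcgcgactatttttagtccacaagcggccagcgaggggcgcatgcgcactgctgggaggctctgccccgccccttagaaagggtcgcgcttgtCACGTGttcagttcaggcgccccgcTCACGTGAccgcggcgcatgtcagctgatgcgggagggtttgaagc
Ctsd: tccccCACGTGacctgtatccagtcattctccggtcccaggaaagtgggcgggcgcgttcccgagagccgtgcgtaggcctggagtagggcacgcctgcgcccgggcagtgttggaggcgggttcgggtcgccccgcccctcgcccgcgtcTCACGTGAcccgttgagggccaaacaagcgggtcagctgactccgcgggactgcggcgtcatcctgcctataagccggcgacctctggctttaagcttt
Atp6v1a: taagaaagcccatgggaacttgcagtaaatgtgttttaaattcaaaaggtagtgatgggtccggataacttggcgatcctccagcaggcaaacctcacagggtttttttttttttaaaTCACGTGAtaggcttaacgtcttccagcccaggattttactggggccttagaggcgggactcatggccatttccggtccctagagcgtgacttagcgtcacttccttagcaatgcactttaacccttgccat
Atg3: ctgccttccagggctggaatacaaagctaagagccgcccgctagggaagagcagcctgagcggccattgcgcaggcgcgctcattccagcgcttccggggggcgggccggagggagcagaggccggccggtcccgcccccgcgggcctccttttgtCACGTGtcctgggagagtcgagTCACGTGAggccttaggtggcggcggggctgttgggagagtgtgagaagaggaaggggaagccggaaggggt
At the other 3 genes the palindrome lies close to the start, just before it at Ctsa, across it at Atp6v0d1 and just after it at Atp6v0e. The 30 bases around it are shown, for Ctsa (chr2:164833749-164833778, plus strand, at its second listed start), Atp6v0d1 (chr8:105566050-105566079, minus strand) and Atp6v0e (chr17:26676387-26676416, plus strand). Ctsa has a further copy just after that start, which is not shown.
Ctsa: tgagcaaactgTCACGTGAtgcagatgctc
Atp6v0d1: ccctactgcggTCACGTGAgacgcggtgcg
Atp6v0e: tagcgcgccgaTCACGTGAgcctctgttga
For contrast, the 250 bases before the start of Ctsc (chr7:88277835-88278084, plus strand), which had the highest fold of all 79 genes in the IL-4 library, and of Ctsm (chr13:61541840-61542089, minus strand), a placental cathepsin with no region, have no CACGTG and are in lower case throughout.
Ctsc: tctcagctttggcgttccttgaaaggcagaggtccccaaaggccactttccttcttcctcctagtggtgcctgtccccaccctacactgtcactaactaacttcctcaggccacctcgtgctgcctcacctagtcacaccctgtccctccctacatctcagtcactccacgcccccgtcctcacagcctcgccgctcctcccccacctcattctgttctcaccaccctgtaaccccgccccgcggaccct
Ctsm: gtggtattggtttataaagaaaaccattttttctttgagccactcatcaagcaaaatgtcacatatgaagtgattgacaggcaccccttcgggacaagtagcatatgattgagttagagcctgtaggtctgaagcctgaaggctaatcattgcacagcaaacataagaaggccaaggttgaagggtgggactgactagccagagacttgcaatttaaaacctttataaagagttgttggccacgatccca

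The promoters with the palindrome were marked from weakly to strongly. A region within 1 kb of a listed start, called a start region, was found at 7 of these 7 genes in the IL-4 library and at 5 in the untreated library, where 85.0% and 76.4% of all genes with TCACGTGA had one. Atp6v0d1, the gene of the subunit that links rotor and membrane ring, had the highest start fold, 7.73 with IL-4 and 4.83 in untreated cells. Atp6v1a, the gene of the catalytic subunit, had a start fold of 6.82 with IL-4 and 4.02 in untreated cells. The summit of that IL-4 region lay at -1336 bp from the start, and the untreated region at the same place, with a fold of 6.03, ended short of the 1 kb limit. Atg3, the gene of the enzyme that joins LC3 to lipid, had 5.10 with IL-4 and 3.75 in untreated cells. The other 4 were lower. Ctsd, the aspartic protease cathepsin D, had 3.77 with IL-4 and 3.84 in untreated cells, over pileups of 110 and 71 fragments, and its direction turned on pileups divided by each library's constant background. Ctsa, a serine carboxypeptidase that also protects other lysosome enzymes, had 3.62 with IL-4 and 2.41 in untreated cells. Mcoln1, the calcium channel of the lysosome, had 3.38 in the IL-4 library and no start region in the untreated library, and Atp6v0e, the gene of a small V0 subunit, had 2.79 in the IL-4 library and none in the untreated library. Lamp1, with 4 copies of CACGTG, had 2.61 with IL-4 and 2.62 in untreated cells. Ctsc has no copy and had 9.78 with IL-4 and 7.51 in untreated cells. Of the 15 genes with CACGTG, 14 had a start region in the IL-4 library and 11 in the untreated library. Over all genes with CACGTG the shares were 79.3% in the IL-4 library and 67.4% in the untreated library.

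Start regions as a whole were found at 48 of 65 genes (73.8%) in the IL-4 library and at 38 (58.5%) in the untreated library, against 66.2% and 55.2% of all genes with a listed start. The start region was found in the IL-4 library alone at 10 genes (15.4%), against 13.9% of all genes, and in the untreated library alone at none, against 2.89%. The 10 genes were Atp6ap1, Atp6v0a4, Atp6v0e, Atp6v1c2, Ctsf, Ctsj, Ctsk, Ctss, Mcoln1 and Ulk2, so 10 of 65 was close to the background share. Their start folds lay between 1.78 at Ctsj and 3.68 at Atp6ap1. Several had an untreated region not far away. At Ctsk, the collagen-cutting cathepsin of osteoclasts, the nearest untreated region was 1.28 kb from the start, and at Ctss, a cathepsin that trims the invariant chain for antigen presentation, it was 2.89 kb away. At Ulk2 it was 75.2 kb away.

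Promoters with a start region were rich in GC, as over the whole genome. The median GC content of the promoter windows was 60.5% for the 48 genes with a start region in the IL-4 library and 60.8% for the 38 in the untreated library. Those without one had a median of 46.7% in the IL-4 library and 48.0% in the untreated library. Over all genes the medians with a start region were 60.7% in the IL-4 library and 61.3% in the untreated library, and without one 47.3% and 50.3%. The part of base composition in the start regions was not tested.

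**Figure D3:**
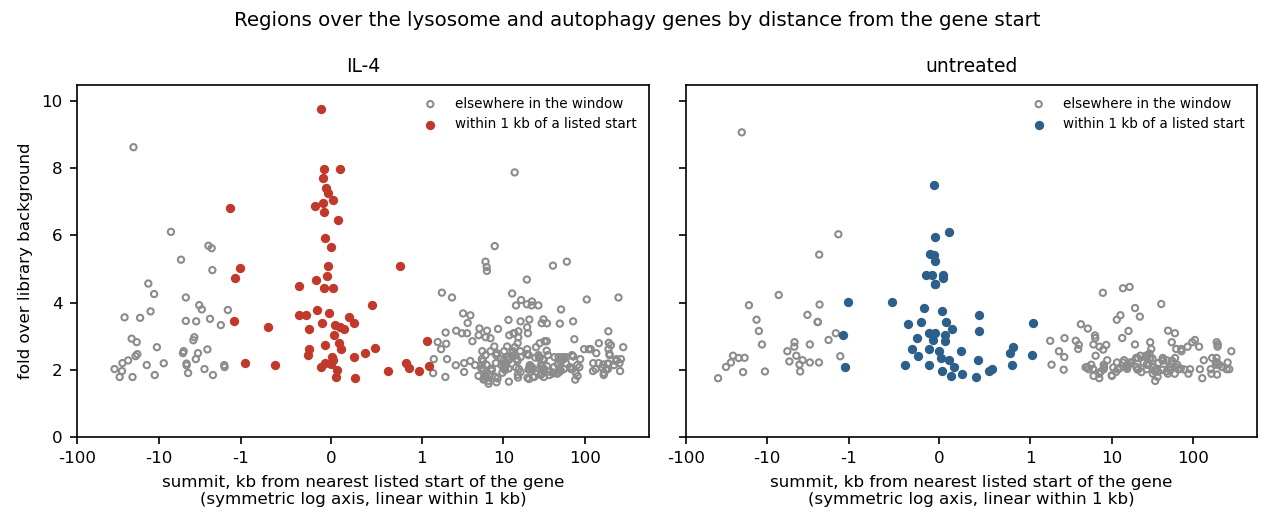
Each point is a region over 1 of the 65 genes with a listed start, by the kb of its summit from the nearest listed start (symmetric log axis) and its fold, with IL-4 left and untreated right; filled points touch the 1 kb around a start. Filled points reach 9.78 with IL-4 and 7.51 in untreated cells, and the regions in gene bodies have a median of 2.31 with IL-4 and 2.21 in untreated cells.

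Regions at starts were the minority and had the higher median fold. In the IL-4 library 62 of 333 regions over these 65 genes (18.6%) were start regions, with a median fold of 3.38, while the 198 in gene bodies had a median of 2.31. In the untreated library 52 of 223 (23.3%) were start regions, with a median of 3.02, and the 124 in gene bodies had a median of 2.21. The strongest region of a gene was its start region at 29 of 60 genes (48.3%) in the IL-4 library and at 28 of 51 (54.9%) in the untreated library, against 46.2% and 45.4% of all genes. Of the 14 genes with no listed start in the table, 11 had a region within 1 kb of either end in the IL-4 library and 10 in the untreated library.

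Regions were found over vacuolar ATPase genes of both sectors of the pump. A region was found at all 25 subunit and accessory genes in the IL-4 library and at 22 in the untreated library, where 87.6% and 82.1% of all genes had one. A fold of 3 or more was found at 19 with IL-4 and 12 in untreated cells, where 59.2% and 41.3% of all genes had one, so the untreated count was close to the background. In the V1 sector the 3 highest in the IL-4 library were Atp6v1d, Atp6v1g1 and Atp6v1a. Atp6v1d (chr12:78842982-78862008) encodes the central rotor shaft and had 7.98 with IL-4 and 5.97 in untreated cells, at a start it shares within 1 kb with Eif2s1. Atp6v1g1 (chr4:63544765-63550701), the gene of a peripheral stalk subunit, had 7.35 with IL-4 and 5.03 in untreated cells. Atp6v1a (chr16:44085402-44139702) had 6.82 with IL-4 and 6.03 in untreated cells at a place that also lies within 1 kb of the start of Naa50. Over the 13 V1 genes the strongest folds ran between 2.46 and 7.98 in the IL-4 library, and between 2.2 and 6.03 over the 12 with a region in the untreated library. A region shared by neighbouring genes cannot be given to either.

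In the V0 sector Atp6v0d1, Atp6v0d2 and Atp6v0a1 were highest in the IL-4 library. Atp6v0d1 (chr8:105524461-105566064) had 7.73 with IL-4 and 4.83 in untreated cells. Atp6v0d2 (chr4:19876838-19922566), the form of the same subunit known from osteoclasts and macrophages, had 6.05 with IL-4 and 6.17 in untreated cells. By strongest fold the d subunit pair therefore stood in the opposite order in the untreated library. The strongest Atp6v0d2 region lay outside the gene in both libraries. Within 1 kb of either gene end, Atp6v0d2 had 5.58 with IL-4 and 4.29 in untreated cells, both under Atp6v0d1. Atp6v0a1, the gene of a membrane subunit that helps conduct protons, had 5.04 with IL-4 and 4.02 in untreated cells. Among accessory genes, Atp6ap2, the prorenin receptor, had 4.80 with IL-4 and 3.08 in untreated cells, and Atp6ap1 had 3.68 in the IL-4 library and no region in the untreated library. Atp6ap1l, a gene similar to Atp6ap1, was weakest at 2.08 with IL-4 and 1.94 in untreated cells. Atp6v1fnb was matched by its symbol as a neighbour of Atp6v1f and shares its strongest region, 3.92 with IL-4 and 3.63 in untreated cells.

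Several pump subunits exist as a broadly expressed form and a form restricted to tissues such as kidney, brain or testis, which gives 8 pairs to compare within a library. Atp6v0d2 is counted as a restricted form, although it is known from macrophages. Atp6v1g1 is the broad form for both Atp6v1g2 and Atp6v1g3, so those pairs are not separate. The broad form had the higher strongest fold in 6 of 8 pairs in the IL-4 library. Among untreated regions, both forms had one in 6 pairs, and the broad form was higher in 4 of those. Atp6v1b2 had 5.81 with IL-4 and 2.88 in untreated cells, while its kidney form Atp6v1b1 had 2.69 with IL-4 and 2.45 in untreated cells. Atp6v0a1 likewise stood above its kidney form Atp6v0a4, which had 2.69 with IL-4 and 2.62 in untreated cells. An exception was the testis form Atp6v1e2, at 5.69 with IL-4 and 3.42 in untreated cells, above Atp6v1e1 with 4.15 and 2.55. That Atp6v1e2 region lies at the start of the uncharacterised gene LOC115488765. The kidney form Atp6v1g3 had 2.96 in the IL-4 library and no region in the untreated library, and Atp6v0e2 had 3.11 with IL-4 and 2.15 in untreated cells, above Atp6v0e. The strongest region of Atp6v1g2, 4.94 with IL-4 and 3.08 in untreated cells, lay at the start of Ddx39b in the IL-4 library and at its own start and that of Nfkbil1 in the untreated library.

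**Figure D4:**
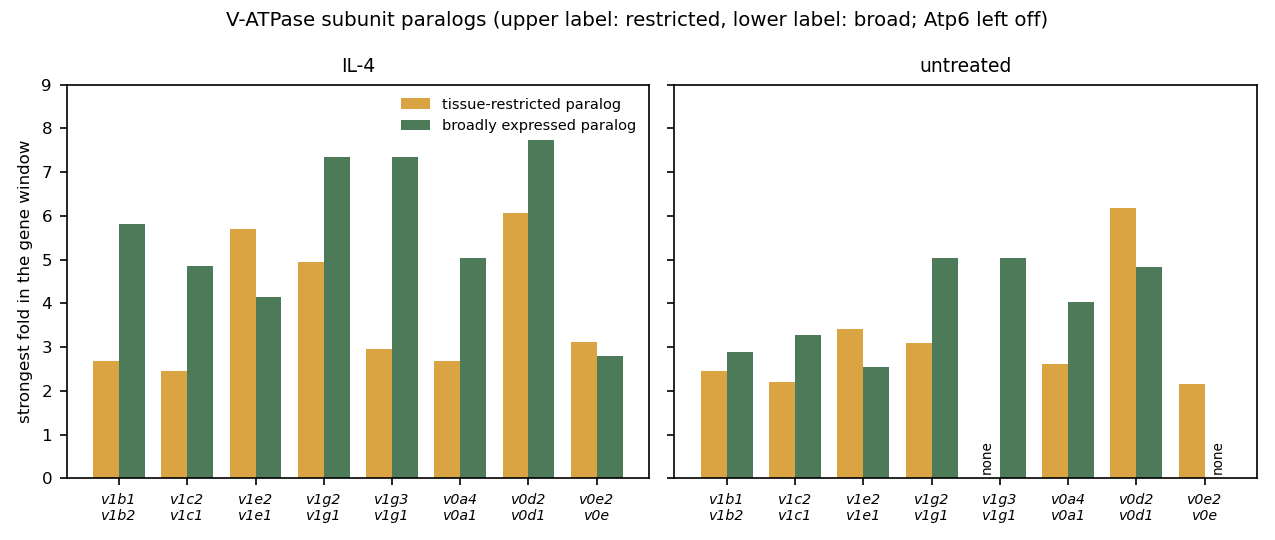
Bars give the strongest fold in the gene window for the tissue-restricted and the broadly expressed form of each pump subunit, with IL-4 left and untreated right, and "none" for a gene with no region. The broad form is the higher bar in 6 of 8 pairs in the IL-4 library, and the d subunit pair changes order between the panels.

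The cathepsins outside the placental cluster spread over the whole range. Of these 14 genes, 13 had a region in the IL-4 library and 11 in the untreated library. Ctsc (chr7:88278024-88315861), a dipeptidyl peptidase that activates granule proteases, had the highest fold in the IL-4 library, 9.78, and 7.51 in the untreated library, over pileups of 206 and 111 fragments. Ctsh (chr9:90054267-90076095), an aminopeptidase that helps process surfactant proteins, had 7.23 with IL-4 and 4.89 in untreated cells. Ctsl (chr13:64361890-64370772), a broad endopeptidase, had 6.46 with IL-4 and 3.42 in untreated cells. Ctsc thus led the cathepsins in both libraries. Ctsd had 3.77 with IL-4 and 3.84 in untreated cells, and Ctsz, a carboxypeptidase, had 3.20 with IL-4 and 3.40 in untreated cells. The strongest region of Ctsa was at a start it shares within 1 kb with Neurl2. Ctsb, a cysteine protease, had 4.30 with IL-4 and 3.80 in untreated cells, Ctsk had 4.27 with IL-4 and 3.62 in untreated cells, and Ctss had 3.79 with IL-4 and 2.21 in untreated cells. In both libraries that Ctsk region lay past the end of the gene, and that Ctss region lay before its start. The lowest folds were 2.37 at Ctsf with IL-4, and 1.94 in untreated cells at Ctsw, a cathepsin of cytotoxic lymphocytes. That Ctsw region lay outside the gene and within 1 kb of the start of Fibp. Ctse, an aspartic protease, and Ctsf had regions in the IL-4 library alone, with 2.79 at Ctse.

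The placental cathepsins, a rodent gene family on chromosome 13, were the weakest role. Of 8 genes, 5 had a region in the IL-4 library and 2 in the untreated library. A single one reached a fold of 3, Cts8 with 3.08 in the IL-4 library, and it had no region in the untreated library. Cts6 had 2.43 with IL-4 and 1.81 in untreated cells, and Cts3 had 2.43 in the IL-4 library and none in the untreated library. Ctsq was the other gene with a region in both, 2.19 with IL-4 and 2.15 in untreated cells. Ctsg, a protease of neutrophil granules, had no region in its window, and the nearest IL-4 region was 5.30 kb from the gene, just outside. For Ctsr and Ctsm the nearest IL-4 regions were 5.58 and 5.92 kb away, also just outside the window, and for Cts7 the nearest region was 64.1 kb away with IL-4 and 7.22 kb away in untreated cells.

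Lysosome membrane genes were marked unevenly. Mcoln3 (chr3:146093277-146141808), an ion channel of endosomes and lysosomes, had 8.63 with IL-4 and 9.07 in untreated cells, the highest untreated fold of the set. That region lay inside the gene 20.5 kb before its listed start. It also lay in the window of Wdr63 in both libraries, so it cannot be given to either gene. The neighbouring Mcoln2, a related channel of immune cells, had 5.06 with IL-4 and 2.62 in untreated cells. Mcoln1 had 3.44 with IL-4 and 3.15 in untreated cells, both at the start of the next gene, Pnpla6. Lamp1 had 3.08 with IL-4 and 2.62 in untreated cells, at different places. Lamp2, needed for fusion with autophagosomes, had 2.67 in the IL-4 library and no region in the untreated library. Lamp3, a form known from dendritic cells and type II cells of the lung, had no region, and the nearest IL-4 region was 12.3 kb away. By window, the Mcoln genes thus ranged between 3.44 and 8.63 in the IL-4 library, and the Lamp genes stayed at or under 3.08 in both libraries. Both ends of that Mcoln range are regions near another gene. At their own starts Mcoln1 had 3.38 with IL-4, Mcoln2 3.02 and Mcoln3 none, and Lamp1 had 2.61. In untreated cells the own start had 1.94 at Mcoln2 and 2.62 at Lamp1, and none at Mcoln1 and Mcoln3. Lamp2 and Lamp3 had no start region in either library.

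Autophagy genes were marked from initiation to conjugation. Of the 10 initiation and nucleation genes, 10 had a region in the IL-4 library and 8 in the untreated library. The 3 highest in the IL-4 library were Atg2a, Atg9a and Ulk1. Atg2a (chr19:6241478-6262304) encodes a lipid transfer protein and had 7.26 with IL-4 and 5.23 in untreated cells. Atg9a (chr1:75180861-75192010), the gene of a lipid scramblase, had 6.97 with IL-4 and 4.73 in untreated cells, at a start shared within 1 kb with Ankzf1. Ulk1 (chr5:110784489-110810120), the kinase that starts autophagy, had 6.87 with IL-4 and 5.42 in untreated cells at its start. The related kinase Ulk2 had 2.73 in the IL-4 library and no region in the untreated library. Becn1, the Beclin subunit of the lipid kinase complex, had 3.38 in the IL-4 library and none in the untreated library, whereas its partner Atg14 had 6.70 with IL-4 and 4.83 in untreated cells. Atg2b, at 4.68 with IL-4 and 3.42 in untreated cells, shared its start region with Gskip.

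All 11 conjugation genes had a region in both libraries, and all 11 reached a fold of 3 in the IL-4 library and 8 in the untreated library, where 59.2% and 41.3% of all genes did. A longer window gives more places for a strong region. Atg10 spans 289378 bp and Atg7 217478 bp, while Atg4d spans 9633 bp and Atg12 9308 bp. The median over all genes was 17169 bp, and the part of gene length was not tested. Atg5 (chr10:44268322-44364299), part of the complex that attaches LC3, had 7.99 with IL-4 and 6.10 in untreated cells. Atg4d, an LC3 protease, had 7.41 with IL-4 and 4.56 in untreated cells, and Atg4c, of the same family, had 6.11 with IL-4 and 4.22 in untreated cells. That Atg4c region lay upstream of the gene, and at its start Atg4c had 3.56 with IL-4 and 2.28 in untreated cells. The lowest was Atg4b, at 3.26 with IL-4 and 2.15 in untreated cells, at a start shared with Thap4. Atg3 shares its start with Slc35a5. Atg7, the activating enzyme of both conjugation routes, had 4.25 with IL-4 and 2.75 in untreated cells, Atg12, the ubiquitin-like partner of Atg5, had 4.76 with IL-4 and 4.43 in untreated cells, and Atg16l1, which anchors that pair, had 5.28 with IL-4 and 3.35 in untreated cells. Atg10, the longest gene of the set, carried 29 regions in the IL-4 library and 32 in the untreated library, with a strongest fold of 5.65 with IL-4 and 5.46 in untreated cells at its start. Sqstm1 (chr11:50200152-50210820), the receptor p62 that brings cargo to autophagosomes, had 5.62 with IL-4 and 5.43 in untreated cells, 2.3 kb before its start. At the start itself Sqstm1 had 2.44 with IL-4 and 2.95 in untreated cells. The pileups there were 61 fragments with IL-4 and 49 in untreated cells, a ratio above the 1.14 of the constant backgrounds, so the direction turns with the scaling.

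Set side by side, the strongest folds were higher in the IL-4 library at 58 of the 63 genes with a region in both, as at 84.8% of all genes, and at 62 of 63 on scaled pileups, as at 87.5% of all genes. The scaled pileup is the fragment pileup divided by the constant background of its library, and its ratio had a median of 1.46 over these genes and 1.36 over all genes. The ratio reached 1.5 at 18 of 63 genes (28.6%, 17.9 to 41.3), against 20.9% of all genes, and no gene had a ratio of 1/1.5 or less, against 0.108% of all genes. The median ratio was 1.36 for these genes, and 41 of the 63 lay above the 1.25 of all genes. The 18 genes were Atg13, Atg16l1, Atg16l2, Atg4b, Atg4d, Atg7, Atp6ap2, Atp6v0a2, Atp6v0d1, Atp6v1b2, Atp6v1e1, Atp6v1e2, Atp6v1g2, Atp6v1h, Ctsl, Ctss, Mcoln2 and Mitf. Divided by 1.25, the ratio reached 1.5 at 3 genes, Atp6v1b2, Mcoln2 and Ctsl, against 3.07% of all genes. The background share for all genes lay inside the interval for the 18.

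The 5 highest ratios were 2.02 at Atp6v1b2, 1.93 at Mcoln2, 1.89 at Ctsl, 1.73 at Mitf and 1.72 at Atg13, a partner of Ulk1. Over pileups of 97 fragments with IL-4 and 42 in untreated cells, the scaled pileup ratio was 2.03 at Atp6v1b2, with an exact 95% interval of 1.40 to 2.98 that covers counting error only. At Ctsl it was 1.89 (1.34 to 2.70), from 108 and 50 fragments. The median of this ratio over all genes, 1.36, lies inside the Ctsl interval and just under that of Atp6v1b2. Both genes were named for their high ratios among the 63, which the intervals do not allow for. At Mcoln2 and Mitf the strongest regions of the libraries lie at different places. Compared at the place of the IL-4 region, Mcoln2 had 5.06 with IL-4 and 2.41 in untreated cells, and Mitf 7.88 and 4.43. The strongest regions overlapped between the libraries at 51 of the 63 genes, of which 14 had a ratio of 1.5 or more, against 24.1% of all genes compared that way.

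The 5 lowest ratios were 0.89 at Atp6v0c, 0.94 at Ctsz, 0.95 at Mcoln3, 0.98 at Ctsd and 0.98 at Atp6v0d2. Atp6v0c, the gene of the proteolipid ring that carries protons, had 3.51 with IL-4 and 3.94 in untreated cells. Those regions lay before the gene, outside the 1 kb around its listed starts. At the start itself Atp6v0c had 3.44 with IL-4 and 2.61 in untreated cells, the opposite direction. On scaled pileups the direction turned at 4 of these 5, with ratios of 1.11 at Atp6v0c, 1.28 at Ctsz, 1.36 at Ctsd and 1.14 at Atp6v0d2, and only Mcoln3 stayed under 1, at 0.925 (0.733 to 1.17). All 5 were at or under the 1.36 of all genes. At Ctsz the strongest regions of the libraries lie at different places, and at the place of the IL-4 region the folds were 3.20 with IL-4 and 3.21 in untreated cells. The local background under the strongest region of Ctsd was 28.5 fragments in the IL-4 library and 17.7 in the untreated library, above the constant 15.9 and 13.9. The scaled pileup ratio had an interval above 1 at 35 of 63 genes (55.6%), against 41.5% of all genes, and an interval below 1 at none, against 0.428% of all genes.

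**Figure D5:**
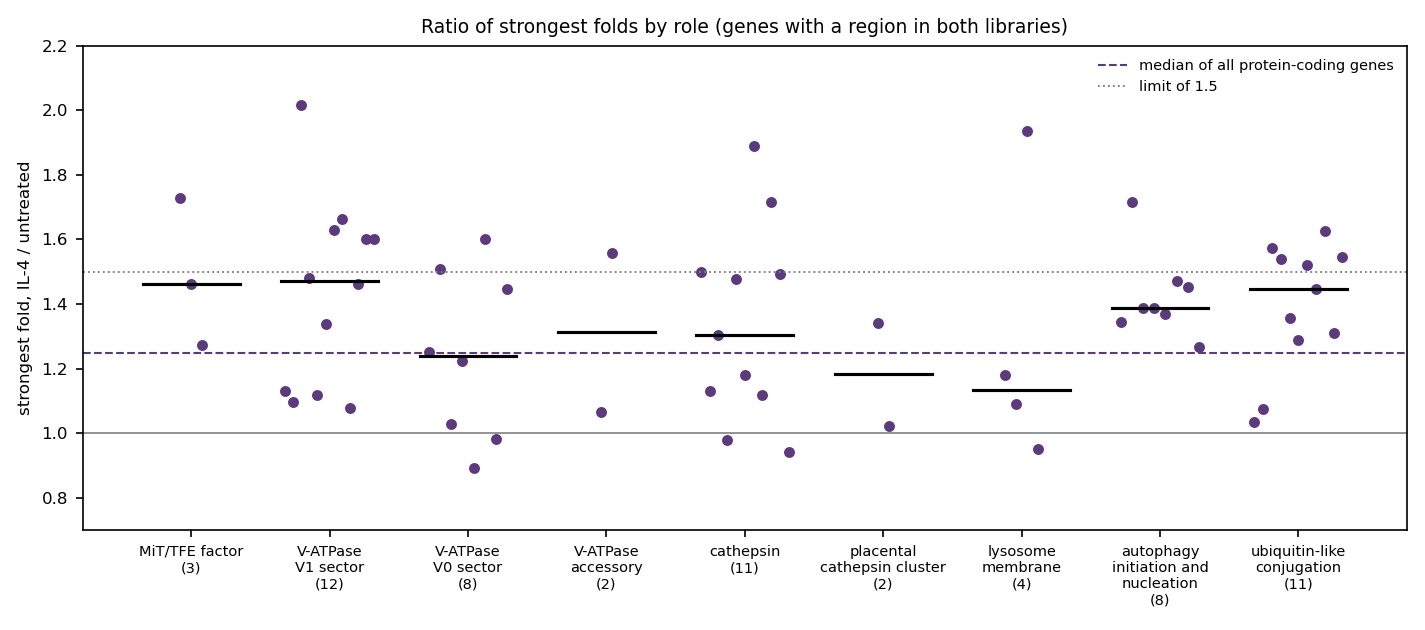
Each point is the ratio of the strongest fold, IL-4 over untreated, for a gene with a region in both libraries, by role, with the number of genes in brackets and a bar at the role's median. The dashed line is the median of all genes, 1.25; the V1 sector (1.47) and conjugation (1.45) medians lie above it, the V0 sector median (1.24) lies at it, and the lysosome membrane median (1.14) lies under it.

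The roles differed in the ratio by small steps. The median was 1.47 over 12 V1 genes and 1.24 over 8 V0 genes, 1.45 over 11 conjugation genes, 1.39 over 8 initiation genes, 1.3 over 11 cathepsins and 1.14 over 4 membrane genes. By the strength of the untreated region, the median ratio was 1.5 over the 22 genes with an untreated fold under 3, 1.34 over the 19 between 3 and 4, and 1.32 over the 22 at 4 or more, against 1.21, 1.31 and 1.24 for all genes in those ranges. These ranges were cut on the untreated fold, which is also the divisor of the ratio. No interval was computed for them, so the gap in the first range is a description only.

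The strong regions of the set were largely the same places in both libraries, as over all genes. Of the IL-4 regions 193 of 384 (50.3%) overlapped an untreated region by at least 1 bp, and of the untreated regions 200 of 257 (77.8%) overlapped an IL-4 region. Over all gene windows the shares were 45.3% and 68.7%. At a fold of 3 or more 106 of 122 IL-4 regions (86.9%) and 64 of 64 untreated regions overlapped, against 87.6% and 99.5% over all gene windows, so these shares were close to the background. At a fold of 4 or more 63 of 63 IL-4 regions and 26 of 26 untreated regions did. The share over all gene windows was not computed at that limit, so the counts at fold 4 are not read as a trait of these genes. Of the regions in these windows, 109 of 384 (28.4%) in the IL-4 library and 77 of 257 (29.96%) in the untreated library also lay in the window of another protein-coding gene.

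Other genes of the same pathways had regions too. Their counts at a fold of 3 or more are to be read against 59.2% of all genes in the IL-4 library and 41.3% in the untreated library. Of 30 further lysosome enzymes, 28 had a fold of 3 or more in the IL-4 library and 21 in the untreated library, with median strongest folds of 4.68 and 3.62. The highest were Lipa, the acid lipase, at 8.72 with IL-4 and 6.64 in untreated cells, and Asah1, acid ceramidase, with 7.63 and 6.35. Of 20 membrane and sorting genes, 20 had a fold of 3 or more in the IL-4 library and 17 in the untreated library. The cholesterol carrier Npc2 reached 11.5 with IL-4 and 8.31 in untreated cells, the sorting receptor M6pr 9.82 and 7.82, and the cholesterol transporter Npc1 6.57 and 4.89. Of 19 nutrient sensing genes, 17 had a fold of 3 or more in the IL-4 library and 11 in the untreated library, led by Rheb, the activator of mTOR, at 8.16 with IL-4 and 7.04 in untreated cells, the folliculin partner Fnip2 with 7.45 and 6.19, and the kinase Mtor with 5.93 and 3.62. Of 34 further autophagy genes, 33 had a fold of 3 or more in the IL-4 library and 20 in the untreated library. Wipi1, which binds the forming membrane, had 11.2 with IL-4 and 10.2 in untreated cells, the cargo receptor Nbr1 had 10.1 and 7.44, and Uvrag, a partner of Beclin, had 9.40 and 8.72. The ratio of strongest folds reached 1.5 at 5 of 29 enzymes, 2 of 20 membrane and sorting genes, 5 of 18 nutrient sensing genes and 14 of 31 further autophagy genes, against 20.9% of all genes. The shares of the enzymes and of the membrane and sorting genes were under that background.

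Marker genes of cell types were read the same way, since the label names the cells as alveolar macrophages. All 14 alveolar macrophage markers had a region in both libraries, with a fold of 3 or more at 13 with IL-4 and 9 in untreated cells, where 59.2% and 41.3% of all genes had one. Of 7 lymphocyte markers 3 had such a fold in the IL-4 library and 1 in the untreated library, of 6 granulocyte markers 3 and 3, and of 7 lung epithelium markers 2 and 1. The highest of the others were Cd79a, a B cell gene, at 7.71 with IL-4 and 6.30 in untreated cells, and S100a8, a neutrophil gene, with 7.11 and 4.89. Its partner S100a9 had no region in either library, and the lymphocyte genes Cd3e, Cd8a and Ms4a1 had none in untreated cells. Other cells' part in the signal of the lysosome and autophagy genes was not tested.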

How the data were processed

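Per the labels' protocols, 1 IL-4 and 1 untreated CUT&Tag library were made with an antibody against PHLPP1. Bowtie 0.12.8, MACS2 2.2.7.1, DiffBind and mm10 are named per the submitters' processing notes, with roles, settings and any control not given in the sources used here. Deposited lists hold 1 region per line, called per library. Their fold is the authors' ratio of summit pileup to local background, with 1 added to both, and they also hold the authors' −log10 p and −log10 q. The deposited score equals 10 times the −log10 p as a whole number, within 1, for 100% of regions. Depth in reads is not stated. Fold and −log10 p together gave back the pileup, which was whole within 0.05 for 100% of regions, after the recovery was tested on simulated data.

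From the lists, regions were joined to RefSeq GRCm38.p6 genes with windows of 5 kb and starts of 1 kb; exon, intron and UTR positions were not analysed here. Of 79 genes, 65 matched a listed start. Intervals are exact 95% intervals.

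The genes and lists were chosen with earlier results of these data known. Named were Tfeb, Tfe3, Mitf, Becn1, Sqstm1, Ulk1, Ulk2, Lamp1 to Lamp3 and Mcoln1 to Mcoln3, then per role the 3 highest folds in the IL-4 library, the genes with a start region or any region in 1 library alone or no region, the 5 highest and lowest ratios, genes whose strongest region lies at their own and another start, and per further list the 3 highest; some genes are not reported here. Other names were chosen after their values were seen. Alternatives covered −log10 q, list length, windows, fold and ratio limits, overlap and scaling. Python 3.11.15, numpy 2.4.6, pandas 2.3.3, scipy 1.17.1 and matplotlib 3.10.9 were used.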

Additional observations from a re-analysis of the deposited data

How the results depend on the processing

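Of 72 recomputed values under 15 alternatives, 63 stayed within their limit (1.5 times for a count, the exact 95% interval for a share) and 9 moved. Part of the 63 was fixed in advance, so that number is no measure of robustness. Lists of equal length left the untreated list whole, so its counts of genes could not change. Leaving out the 5 genes on X could not shift a count by 1.5 times. High counts, such as 74 of 79, could not rise that far. The share of regions over these genes that overlapped the other list moved with the list. With a −log10 q of at least 5 it was 45.1% in the IL-4 library and 92.9% in the untreated library. With lists of equal length it was 57.2% in the IL-4 library, and with an overlap of 50% of the region 41.4%. The number of genes with a fold of 3 or more in the untreated library was 26 without regions shared with another gene and 22 at a fold limit of 4. The number with a ratio of 1.5 or more was 28 on scaled pileups, 37 at a limit of 1.3, and 3 when divided by the median of all genes, an alternative chosen after seeing the data, as were those that kept overlapping strongest regions or left out X. The cause of these moves was not tested beyond what the stricter limits and the smaller lists set by construction. No paired analysis was possible because each group held 1 library, and no library could be left out.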
